A study of Mus musculus with 4 samples.

Results

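The cells described here are 1528 tumour macrophages that the authors' graph-based clustering put in cluster 6 and their classification called macrophages. They were chosen by these deposited labels alone, and they were 1171 of 12979 cells in the IL-12 library and 357 of 4232 cells in the control library. Another 3 IL-12 and 11 control cells of cluster 6 had another class and were left out. Mouse mammary tumours had been injected with IL-12 plasmid or with control plasmid, each followed by electroporation, and live CD45+ cells of 3 mice were pooled per treatment to make 1 library of gene expression and 1 of T cell receptors. Interleukin 12 (IL-12) acts on T and NK lymphocytes, which answer with interferon-gamma. The sources differ on the model: the growth protocol names HER2 induced in mammary tissue of mice 1 month old, the series text names triple-negative tumours, and the names of the deposited tables carry 4T1, a mouse mammary carcinoma line. Strain, sex, plasmid dose and days of treatment are not given in the sources used here. With 1 library per treatment no difference between treatments has a replicate check, so no test was made. Brackets hold exact 95% intervals that cover counting error only, not differences between mice or preparations. Those of levels and ratios come from summed counts and also leave out differences between cells, so they are too narrow for genes held by few cells.

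Macrophages arise in tumours largely from blood monocytes and take up debris, present antigen and remodel matrix. Interferon-gamma raises antigen presentation, guanylate-binding proteins and the chemokines that attract CXCR3-bearing T cells. Interleukin 4 and tumour-derived signals instead favour arginase 1, chitinase-like proteins and matrix genes, the pattern named alternative activation.

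Cluster 6 held 11020528 unique molecular identifiers (UMIs) in the IL-12 library and 3279171 in the control library, with medians of 9361 and 9155 UMIs per cell. Cluster 10, the other cluster called macrophages that is described here, held 519 IL-12 cells and 209 control cells at medians of 1246 and 1190 UMIs. Levels are counts per 1000000 UMIs (CPM) of summed UMIs, and 1 CPM was added to both levels before a log2 ratio was taken. The median mitochondrial share was 0.992% in IL-12 cells and 1.41% in control cells of cluster 6. Between the libraries 87 barcodes were shared, among them those of 8 IL-12 and 1 control member of cluster 6, and 0 barcodes belonged to members in both.

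The cells carried the markers of macrophages. All 14 genes of the macrophage list were seen in cluster 6 of both libraries, and together they stood at 16724 CPM in IL-12 and 13792 CPM in control cells. Outside cluster 6 the same list summed to 5234 CPM in the IL-12 library and 7319 CPM in the control library. Lyz2, the lysozyme of myeloid cells, reached 3947 CPM in the IL-12 library, against 2895 CPM in the control library. Csf1r, the receptor for the growth factor on which macrophages depend, reached 215 CPM in the IL-12 library, against 309 CPM in the control library. Both were far above their levels in CD8 T cells, where Lyz2 stood at 140 CPM in the IL-12 library and 63.3 CPM in the control library, and Csf1r at 7.51 CPM and 6.55 CPM. Adgre1, which encodes F4/80, was scarce, at 33.8 CPM in the IL-12 library, against 65.3 CPM in the control library.

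Transcripts of other cell types were uneven between the libraries. A UMI of Cd3d, Cd3e, Cd3g or Trac, genes of the T cell receptor complex, was present in 37.6% (34.8 to 40.4) of IL-12 and 17.4% (13.6 to 21.7) of control cells of cluster 6. In neutrophils, which should lack them, the shares were 21.1% (20.1 to 22.2) and 11.5% (10.4 to 12.8), at medians of 2553 and 2524 UMIs per cell. Cells in which the neutrophil genes S100a8 and S100a9 exceeded 1% of UMIs made up 19.5% (17.2 to 21.9) of IL-12 and 17.1% (13.3 to 21.4) of control members. The neutrophil list summed to 9370.1 CPM in IL-12 and 9791 CPM in control members, and the T cell list to 648 and 191 CPM. Cluster 6 cells were deeper than neutrophils. With every cell thinned to 1000 UMIs, Cd3e was seen in 7.26% (5.84 to 8.898) of IL-12 and 1.96% (0.792 to 3.998) of control members, against 2.898% (2.48 to 3.37) and 1.19% (0.808 to 1.68) of neutrophils, and S100a8 in 42.4% (39.5 to 45.2) and 59.4% (54.1 to 64.5) of members. The Cd3e share of members was above that of neutrophils in the IL-12 library, and the intervals overlapped in the control library. The listed B cell, fibroblast and mast cell markers were near 0 in cluster 6, with list sums of 4.81 and 5.49 CPM, 0.817 and 0.6099 CPM, and 9.16 and 3.35 CPM in IL-12 and control cells. The mast cell proteases Mcpt1 and Mcpt2, which are not on that list, stood at 16.5 against 1.22 CPM and 12.1 against 0.6099 CPM in IL-12 and control cells. Pax5 in the IL-12 library, Col3a1 in both libraries and Gata2 in both libraries had no UMI. Tumour epithelium markers summed to 17.8 and 32.6 CPM in IL-12 and control cells, most of it Cdh1, at 9.16 against 30.5 CPM, and Erbb2, the gene of HER2, had no UMI in either.

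Cluster 6 was a similar share of the sort in both libraries. It made up 9.02% (8.53 to 9.53) of IL-12 cells and 8.44% (7.62 to 9.31) of control cells, a difference of 0.587 percentage points. The direction turned with the cells counted: without neutrophils the shares were 16.6% (15.7 to 17.4) in the IL-12 library and 23.6% (21.5 to 25.9) in the control library. Leaving out cluster 6 cells with a T cell UMI gave 5.83% (5.43 to 6.25) in IL-12 and 7.07% (6.31 to 7.90) in control. Among cells called macrophages, cluster 6 was 68.8% (66.5 to 71.0) in IL-12 and 62.2% (58.1 to 66.2) in control. A share of sorted cells also moves with the yield of every other type, and these cannot be told apart here.

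The 6 genes that mark the cluster were not equally frequent in the libraries. Fn1 at chr1:71585520-71653200, which encodes the matrix protein fibronectin, stood at 639 CPM in the IL-12 library, against 2158 CPM in the control library, 3.38-fold (3.27 to 3.49) lower. Thbs1 at chr2:118111876-118127133, encoding the matrix protein thrombospondin 1, stood at 952 CPM in the IL-12 library, against 1895 CPM in the control library, 1.99-fold (1.93 to 2.05) lower. Arg1 at chr10:24915221-24927484, the arginase that consumes L-arginine, stood at 1017 CPM in the IL-12 library, against 2133 CPM in the control library, 2.098-fold (2.04 to 2.16) lower. Apoe at chr7:19696109-19699188, a lipid carrier made by many tissue macrophages, was 1.83-fold (1.81 to 1.86) lower, with 3952 CPM in the IL-12 library, against 7248 CPM in the control library. These 4 matrix, arginase and lipid genes were all lower in IL-12 cells, and the 2 remaining markers did not follow them. Inhba at chr13:16011851-16031621, the subunit of activin A, was within 1.5-fold, at 968 CPM in the IL-12 library, against 1204 CPM in the control library. Ms4a4c at chr19:11404770-11427246, a membrane protein gene of monocytes, was 3.38-fold (3.05 to 3.76) higher, at 397 CPM in the IL-12 library, against 117 CPM in the control library. Fn1 and Thbs1 were lower in IL-12 cells of cluster 10 as well, at 469 against 909 CPM and 66.7 against 274 CPM. Arg1 and Apoe were not, at 1443 against 1241 CPM and 5517 against 4892 CPM. In neutrophils Fn1 stood at 27.0 against 41.5 CPM and Thbs1 at 20.7 against 38.3 CPM in IL-12 and control cells. Coordinates are those of the GENCODE annotation on GRCm38. Of the 60-base stretches of Chil3 and Ly6c2 transcripts, 23.2% and 10.2% are shared with Chil4 and Ly6c1, and of Tgtp1 and Gzmd 89.9% with Tgtp2 and 14.6% with Gzme, so levels of these genes are uncertain where the counting divides shared reads.

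The marker genes also differed in how they were spread over cells. The median cell of cluster 6 had 216 CPM of Fn1 in the IL-12 library and 1502 CPM in the control library, and 32.8% and 12.3% of cells had none. For Arg1 the median cell had 149.9 CPM in IL-12 and 1396 CPM in control. Thbs1 and Inhba were seen in part of the cells: about as many cells lacked a UMI of Thbs1 in IL-12 (50.8%) as in control (49.9%), while the cell at the 90th percentile had 3178 CPM in IL-12 and 6071 CPM in control. In the control library 10 cells held 33.1% of all Inhba UMIs and 28.5% of all Thbs1 UMIs, against 14.8% for Fn1. The IL-12 library showed no such contrast, with shares of 11.98% for Inhba, 11.5% for Thbs1 and 13.5% for Fn1. Its top 118 cells held 61.6%, 60.2% and 58.5%.

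**Figure D1:**
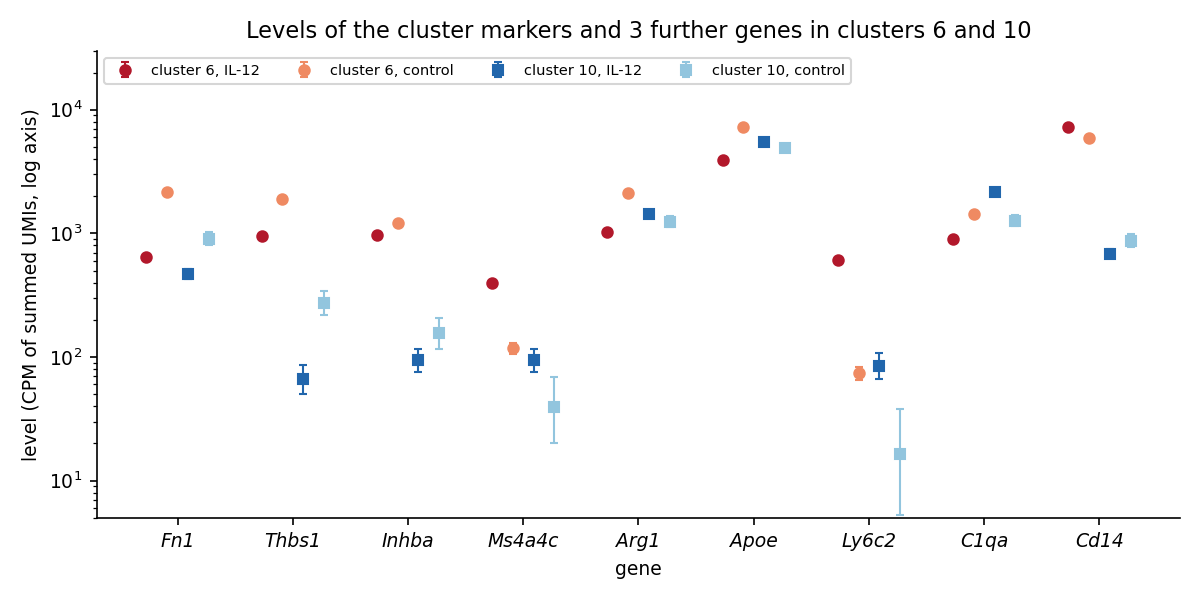
Levels (CPM of summed UMIs, log axis) of the 6 marker genes and of Ly6c2, C1qa and Cd14 in cluster 6 (circles) and cluster 10 (squares), IL-12 library left of control within each pair. Bars are exact Poisson 95% intervals; Ms4a4c and Ly6c2 were highest in IL-12 cells of cluster 6, and Fn1 and Arg1 highest in control cells of cluster 6.

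Cluster 6 had higher levels of many matrix, cytokine and neutrophil chemokine genes than cluster 10. Both clusters were drawn from these expression values, so the contrast is a description. Of 4968 genes measured in both libraries, 385 (7.75%) were at least 2-fold higher in cluster 6 than in cluster 10 in both, and 53 (1.07%) were at least 2-fold lower. Centring on the median gene gave 223 higher and 130 lower, and dividing by the UMIs of the genes in the table gave 260 and 105. The median log2 ratio of all measured genes was 0.07 in the IL-12 library and 0.30 in the control library. Of the 18 matrix and TGF-beta genes, 8 were at least 2-fold higher and 0 lower in the IL-12 library, and 10 higher and 0 lower in the control library. Over all measured genes, 12.9% were higher and 6.82% lower in the IL-12 library, and 18.9% higher and 2.91% lower in the control library. Of the cytokine genes with at least 20 UMIs, 11 of 15 were higher and 1 lower in the IL-12 library, and 8 of 12 higher and 0 lower in the control library. All 5 neutrophil chemokine genes in the IL-12 library, and all 4 with enough UMIs in the control library, were higher. They were not particular to cluster 6. Their list summed to 19452 CPM in IL-12 and 17141.5 CPM in control members, against 20707 and 19511 CPM in all cells outside cluster 6. Other chemokines were mixed. Of 7 monocyte chemokine genes with enough UMIs, 2 were higher and 2 lower in the IL-12 library, and 3 higher and 0 lower in the control library; of 8 CXCR3 ligands and T cell chemokines, 1 was higher and 1 lower in the IL-12 library, and 3 higher and 0 lower in the control library. Cd14, the co-receptor for lipopolysaccharide, stood at 7283 CPM in cluster 6, against 686 CPM in cluster 10 in the IL-12 library. In the control library it stood at 5864 CPM in cluster 6, against 873 CPM in cluster 10. Neutrophils held more Cd14 than cluster 6, at 8179 CPM in the IL-12 library and 8998 CPM in the control library. Cxcl1, a neutrophil-attracting chemokine, stood at 1356 CPM in cluster 6, against 100.01 CPM in cluster 10 in the IL-12 library, and at 831 CPM in cluster 6, against 104 CPM in cluster 10 in the control library. Adora2b, an adenosine receptor, was seen at 148 CPM in cluster 6, against 10.3 CPM in cluster 10 in the IL-12 library and at 78.7 CPM in cluster 6, against 9.77 CPM in cluster 10 in the control library. In cluster 10 the gene had 3 control UMIs, and the control ratio was 8.05-fold (2.72 to 39.3).

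Secreted factors filled most of the other places at the top. Inhba was 10.3-fold (8.26 to 12.9) higher in cluster 6 in the IL-12 library and 7.704-fold (5.799 to 10.5) higher in the control library, and Thbs1 14.3-fold (11.04 to 18.8) and 6.93-fold (5.59 to 8.696) higher. Osm, a cytokine of the interleukin 6 family, was 9.41-fold (7.19 to 12.6) higher in IL-12 and 6.57-fold (4.83 to 9.17) higher in control. Lif, of the same family, was 11.4-fold (2.02 to 455) higher in IL-12 and 9.93-fold (1.74 to 396) higher in control, each against 1 UMI in cluster 10. Clp1, an RNA kinase gene, was 8.03-fold (2.72 to 39.1) higher in IL-12, against 3 UMIs in cluster 10, and at least 1.56-fold higher in control, where cluster 10 had no UMI and the floor was 3 counts over the cluster.

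The genes lower in cluster 6 were of other kinds. Ube2c and Cks1b, genes of cell division, stood at 7.71 against 74.7 CPM and 8.44 against 39.1 CPM in clusters 6 and 10 of the IL-12 library, and at 14.03 against 48.9 CPM and 13.7 against 42.3 CPM in those of the control library. Fabp5, a fatty acid carrier, stood at 48.2 against 191 CPM in the IL-12 library and 28.4 against 91.2 CPM in the control library. Satb1, Ptpn22 and Ablim1, which T cells express, were 3.07-fold (2.26 to 4.12), 3.46-fold (2.59 to 4.55) and 3.71-fold (2.85 to 4.78) lower in cluster 6 in the IL-12 library, and 6.67-fold (3.88 to 11.3), 4.33-fold (2.21 to 8.08) and 6.71-fold (3.75 to 11.8) lower in the control library. The noncoding RNA Rn7sk and the nucleotidase gene Ntpcr completed the 8 lowest, with log2 ratios of -2.77 and -1.82 in IL-12 and -2.01 and -1.54 in control. Cluster 10 also carried more red cell transcripts, with a list sum of 13457 CPM in the IL-12 library and 13779 CPM in the control library, against 141 and 6.404 CPM in cluster 6. Its tumour epithelium sum was 243 CPM in IL-12 and 208 CPM in control. Cluster 6 carried more neutrophil transcripts. Their list summed to 9370 against 2343 CPM in the IL-12 library and 9791 against 7530 CPM in the control library. Of the listed neutrophil genes with enough UMIs, 9 of 11 were at least 2-fold higher and 0 lower in the IL-12 library. In the control library 3 of 10 were higher and 0 lower. Over all measured genes, 12.9% and 18.9% were higher in the IL-12 and control libraries. The part of these transcripts, and of the lower depth of cluster 10, in the contrast was not tested.

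Monocyte genes were higher in cluster 6. Of 11 monocyte genes 10 had at least 20 UMIs, and 8 were at least 2-fold higher in cluster 6 in each library and 0 lower, with medians of 2.09 in IL-12 and 1.45 in control on the log2 scale. Against cluster 10, 837 of 6493 measured genes (12.9%) in the IL-12 library and 948 of 5011 (18.9%) in the control library were that much higher, and 443 (6.82%) and 146 (2.91%) that much lower. Of 15 cytokine genes with enough UMIs in the IL-12 library 11 were higher and 1 lower, and of 12 in the control library 8 were higher and 0 lower. Il1b, the interleukin 1 beta gene, stood at 6416 CPM in cluster 6, against 1219 CPM in cluster 10 in the IL-12 library. Proliferation genes ran the other way, with 0 of 14 higher and 11 lower in the IL-12 library, and 0 of 11 higher and 7 lower in the control library. C1qa, which encodes a subunit of C1q and marks settled macrophages, stood at 907 CPM in cluster 6, against 2153 CPM in cluster 10 in the IL-12 library, and at 1447 CPM in cluster 6, against 1270.1 CPM in cluster 10 in the control library. Arg1 and Apoe, 2 of the markers given for cluster 6, were also lower there than in cluster 10 in the IL-12 library, at 1017 against 1443 CPM and 3952 against 5517 CPM, and higher in the control library, at 2133 against 1241 CPM and 7248 against 4892 CPM. By summed level neither marked cluster 6 against cluster 10 in the IL-12 library. With every cell thinned to the same depth, Apoe was seen in a larger share of IL-12 cells in cluster 6 than in cluster 10. Its shares were 70.3% (67.6 to 72.9) and 58.2% (53.0 to 63.3). Those of Arg1 were 33.8% (31.1 to 36.6) and 34.5% (29.7 to 39.6), with overlapping intervals.

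Between the libraries, cluster 6 of IL-12 tumours carried more interferon-response, antigen-presentation and monocyte transcripts, and fewer transcripts of alternative activation. Of 6983 measured genes, 727 (10.4%) were at least 1.5-fold higher in IL-12 cells and 1486 (21.3%) at least 1.5-fold lower, with a median log2 ratio of -0.15. Centring on that median gave 1049 higher and 997 lower, so the balance between the directions rests on the scaling. Without cells that hold a T cell UMI, 693 (9.92%) were higher and 1779 (25.5%) lower over the same genes, with a median of -0.20. Without cells that have a clonotype, 694 (9.94%) were higher and 1572 (22.5%) lower.

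The 10 genes with the largest ratios were of monocyte, interferon-response, lymphocyte and mast cell kinds. Ly6c2 at chr15:75108158-75111970, the surface antigen of inflammatory monocytes, stood at 614 CPM in the IL-12 library, against 73.8 CPM in the control library, 8.32-fold (7.32 to 9.495) higher. Ly6a, which encodes Sca-1 and responds to interferons, stood at 461 CPM in the IL-12 library, against 57.03 CPM in the control library, 8.09-fold (6.99 to 9.41) higher. Calhm6, a channel gene induced by interferon-gamma, stood at 65.1 CPM in the IL-12 library, against 6.099 CPM in the control library, 10.7-fold (6.85 to 17.6) higher. Serpina3f, a protease inhibitor gene, stood at 15.1 CPM in the IL-12 library, against 0.915 CPM in the control library, where it had 3 UMIs, a ratio of 16.5-fold (5.54 to 80.7). Without cells that hold a T cell UMI the log2 ratios of these 4 genes were 3.09, 2.69, 3.44 and 2.94, against 3.04, 2.99, 3.22 and 3.07 in all members. Ly6c2 and Ly6a were also higher in IL-12 cells outside cluster 6, with log2 ratios of 2.59 and 2.37.

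Ctla4, Gimap6, Gimap7 and Ifng, genes of lymphocytes, had log2 ratios of 3.27, 3.09, 3.19 and 2.96 in all members and of 1.61, 1.48, 1.17 and 1.36 without cells that hold a T cell UMI. Ifng, the interferon-gamma gene itself, stood at 16.2 CPM in the IL-12 library, against 1.22 CPM in the control library over all members and at 2.56 CPM in the IL-12 library, against 0.384 CPM in the control library over those without a T cell UMI. The control value over cells without a T cell UMI is 1 UMI, and the ratio there was 6.67-fold (1.05 to 279). Mcpt1 and Mcpt2, mast cell proteases, completed the 10 at 16.5 against 1.22 CPM and 12.1 against 0.6099 CPM. Mcpt2 had 2 control UMIs, a ratio of 19.8-fold (5.37 to 165). Outside cluster 6 they stood at 145 against 12.7 CPM and 101 against 2.85 CPM in IL-12 and control cells.

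The genes with the smallest ratios were led by genes confined to few cells. Ear2, a secreted ribonuclease, stood at 1.91 CPM in the IL-12 library, against 46.4 CPM in the control library; 10 cells held 71.1% of its control UMIs. Car4, a membrane carbonic anhydrase, stood at 2.81 CPM in the IL-12 library, against 50.01 CPM in the control library, with 84.8% of its control UMIs in 10 cells. Adamdec1, a metalloprotease gene, stood at 4.17 CPM in the IL-12 library, against 53.1 CPM in the control library, and Plet1, a membrane protein gene, at 8.26 CPM in the IL-12 library, against 73.5 CPM in the control library. Others were spread more widely over cells. Chil3 at chr3:106147554-106167564, a chitinase-like protein and a common sign of alternative activation, was 8.94-fold (8.52 to 9.37) lower, at 215 CPM in the IL-12 library, against 1923 CPM in the control library, and was seen in 25.5% of IL-12 and 52.9% of control cells. Chil3 was also less frequent in IL-12 cells of other kinds. With every cell thinned to the same depth, it was seen in 0.681% of IL-12 and 11.1% of control neutrophils. The shares were 2.96% and 11.02% in cluster 10, and 0.153% and 1.54% in CD8 T cells, against 7.51% and 34.7% of members. How far the Chil3 difference is particular to cluster 6 was not tested. Mt2, a metallothionein, stood at 17.6 CPM in the IL-12 library, against 141 CPM in the control library. Gpx3, a secreted peroxidase, Net1, an exchange factor for RhoA, and Cttn, the actin-binding cortactin, were 6.16-fold (4.59 to 8.33), 5.97-fold (4.61 to 7.77) and 7.07-fold (4.47 to 11.4) lower. All of those named were also at least 2-fold lower without the cells that hold a T cell UMI, with log2 ratios between -2.33 and -4.04.

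**Figure D2:**
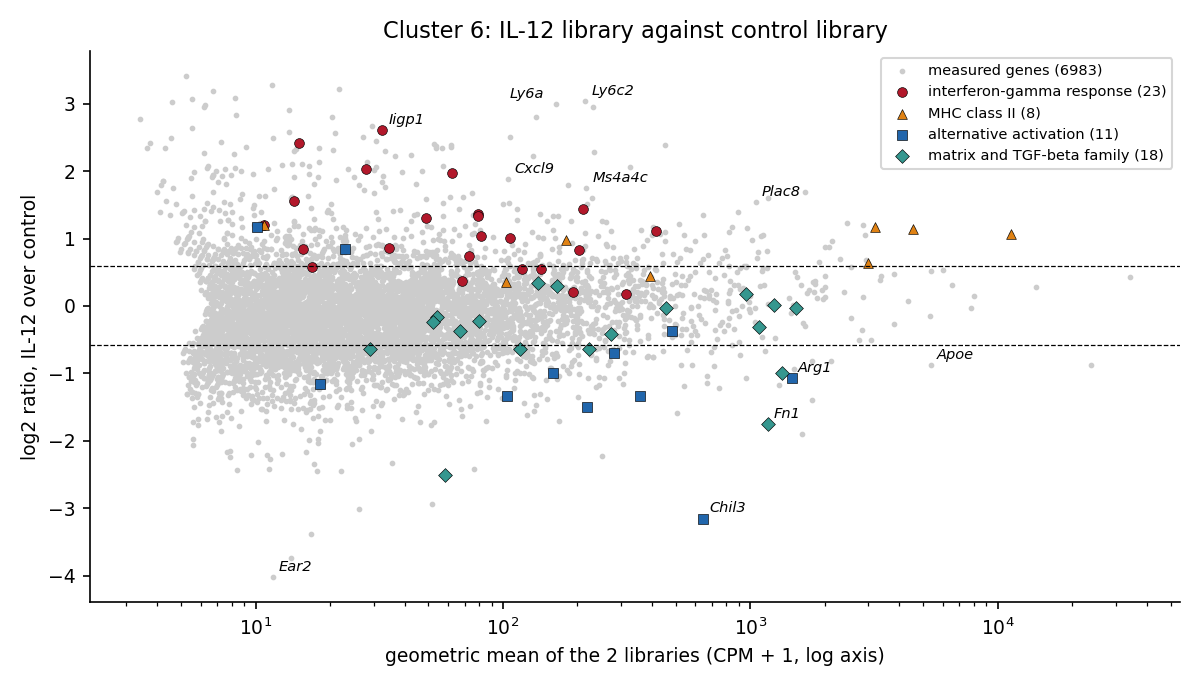
Log2 ratio of cluster 6 in the IL-12 library over the control library (y) against the geometric mean of both levels (x, CPM + 1, log axis), 1 point per measured gene; dashed lines mark 1.5-fold and coloured points the members of 4 gene lists. Interferon-gamma response and MHC class II genes lie above 0, and most alternative activation genes lie below the lower line.

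Most interferon-gamma response genes were higher in cluster 6 of the IL-12 library. Of 24 listed genes, 23 had at least 20 UMIs; 17 were at least 1.5-fold higher, 0 lower and 6 within 1.5-fold, against 10.4% of all measured genes higher. Their median log2 ratio was 1.04, and 19 of 23 were higher without the cells that hold a T cell UMI. The guanylate-binding proteins, GTPases that act against intracellular microbes, included Gbp4, at 123 CPM in the IL-12 library, against 30.5 CPM in the control library, Gbp2, at 345 CPM in the IL-12 library, against 127 CPM in the control library, and Gbp7, at 93.1 CPM in the IL-12 library, against 55.2 CPM in the control library. Among the immunity-related GTPases, Iigp1 stood at 79.3 CPM in the IL-12 library, against 12.2 CPM in the control library, Igtp at 126 CPM in the IL-12 library, against 48.2 CPM in the control library, and Irgm1 at 125 CPM in the IL-12 library, against 48.8 CPM in the control library. Tgtp1 and Tgtp2, neighbours of nearly the same sequence whose UMIs the counting may have divided between them, stood at 55.5 against 12.8 CPM and 33.5 against 5.49 CPM in IL-12 and control cells. Irf1, a transcription factor of the response, lay within 1.5-fold, at 76.4 CPM in the IL-12 library, against 59.2 CPM in the control library. Socs1, an inhibitor that feeds back on the receptor, was 2.07-fold (1.78 to 2.43) higher. The receptor genes Ifngr1 and Ifngr2 had log2 ratios of 0.22 and 0.25.

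In other cells the median log2 ratio of the same list was 0.64 over 14 measured members in cluster 10 and 0.27 over 21 in all cells outside cluster 6. In cluster 10, 13 of 20 were at least 1.5-fold higher and 1 lower, against 488 of 2108 measured genes (23.1%) higher and 286 (13.6%) lower. Outside cluster 6, 7 of 23 were higher and 2 lower, against 863 of 5036 (17.1%) and 1249 (24.8%). Igtp had a log2 ratio of 1.37 in cluster 6, of -0.36 in cluster 10 and of 0.13 in all cells outside cluster 6. Socs1 gave 1.04, -0.41 and 0.31, and Gbp2 gave 1.43, 0.66 and 0.26. The differences between these groups of cells were not tested.

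Promoters are shown because most of the listed genes were higher and because 2 sequence motifs are known for the response. GAS elements were searched as TTCNNNGAA, which reads the same on both strands. Interferon regulatory factors bind ISRE elements, searched as GAAA, any 2 bases and GAAA again, or on the other strand as TTTC, any 2 bases and TTTC again. In the 250 bases before the start, RefSeq promoters on GRCm38.p6 were found for 18 of the 24 listed genes; 10 (55.6%) held a GAS match, 11 (61.1%) an ISRE match and 6 (33.3%) both, against 8.13%, 3.46% and 0.459% of 27025 genes. The stretches run from 110 bases before the start to the base before it, except for Chil3, and capitals mark the matches.
Igtp, chr11:58199446-58199555, plus strand: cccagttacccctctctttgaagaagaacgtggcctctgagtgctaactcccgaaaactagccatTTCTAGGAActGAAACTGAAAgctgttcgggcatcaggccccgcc
Irgm2, chr11:58214867-58214976, plus strand: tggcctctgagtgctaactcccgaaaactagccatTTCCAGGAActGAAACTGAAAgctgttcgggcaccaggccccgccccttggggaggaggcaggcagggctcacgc
Gbp2, chr3:142620553-142620662, plus strand: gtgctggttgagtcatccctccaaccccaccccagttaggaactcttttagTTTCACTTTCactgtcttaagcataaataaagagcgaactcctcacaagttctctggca
Gbp5, chr3:142496824-142496933, plus strand: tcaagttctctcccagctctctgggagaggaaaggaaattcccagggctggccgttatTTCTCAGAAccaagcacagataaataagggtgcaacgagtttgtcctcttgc
Irf1, chr11:53769904-53770013, plus strand: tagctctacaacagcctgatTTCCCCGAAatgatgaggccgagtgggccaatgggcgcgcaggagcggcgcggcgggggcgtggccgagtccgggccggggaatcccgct
Chil3, chr3:106167665-106167774, minus strand: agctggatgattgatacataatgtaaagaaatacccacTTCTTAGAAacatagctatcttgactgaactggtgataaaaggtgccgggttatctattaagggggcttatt
Igtp held its GAS match 45 bases and its ISRE match 34 bases before the start, and Irgm2 held the pair at 75 and 64 bases, with the same spacing. Gbp2 held an ISRE match at 59 bases. Gbp5 and Irf1 held GAS matches at 52 and 90 bases. Chil3, shown from 210 to 101 bases before its start, held a GAS match at 172 bases and was lower in the IL-12 library. Of 9 alternative activation genes with a promoter, 3 (33.3%) held a GAS match. No GAS match in these stretches overlapped an ISRE match.

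Most type I interferon genes and MHC class II genes were also higher. Of 18 type I interferon genes, 12 were at least 1.5-fold higher, 0 lower and 6 within, with a median of 0.90; over all measured genes 10.4% were higher. In the cells outside cluster 6, 12 of the 18 were also higher and 1 lower, with a median over 17 measured genes of 0.89, where 17.1% of all measured genes were higher. Isg15, a ubiquitin-like protein, stood at 1442 CPM in the IL-12 library, against 649 CPM in the control library, and Ifitm3, a membrane protein that blocks virus entry, at 3769.6 CPM in the IL-12 library, against 1599.8 CPM in the control library. Oasl1 and Rsad2 stayed within 1.5-fold, at 127 against 159 CPM and 252 against 217 CPM in IL-12 and control cells. Of 10 MHC class II genes, which present peptides to CD4 T cells, 7 were higher and 0 lower, with a median over 8 measured genes of 1.02. H2-Aa stood at 6729 CPM in the IL-12 library, against 3058 CPM in the control library, H2-Ab1 at 3735 CPM in the IL-12 library, against 2413 CPM in the control library, and Ciita, their master regulator, at 15.3 CPM in the IL-12 library, against 6.099 CPM in the control library. In cluster 10, 7 of 8 class II genes with enough UMIs were higher, against 23.1% of its measured genes, with a median over 7 measured genes of 1.24. Of 11 MHC class I genes, 8 lay within 1.5-fold, 0 were lower and 3 were higher: H2-K1 at 4329.9 against 1893 CPM, H2-D1 at 3742 against 2322 CPM and B2m at 4209 against 2021 CPM.

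Of 9 CXCR3 ligands and T cell chemokines, 4 were higher and 2 lower, against 10.4% and 21.3% of all measured genes. The ligands of CXCR3, a receptor of activated T cells, were all higher: Cxcl9 stood at 200.2 CPM in the IL-12 library, against 53.7 CPM in the control library, Cxcl10 at 138 CPM in the IL-12 library, against 26.2 CPM in the control library, and Cxcl11 at 59.7 CPM in the IL-12 library, against 14.03 CPM in the control library. Without cells that hold a T cell UMI their log2 ratios were 1.98, 2.48 and 1.86. In the control library 10 cells held 68.8% of 176 Cxcl9 UMIs and 81.4% of 86 Cxcl10 UMIs. In the IL-12 library 10 cells held 23.5% and 41.7%. However, 10 cells are a larger part of the 357 control cells than of the 1171 IL-12 cells. Over similar parts, the top 36 control cells held 99.4% of Cxcl9 UMIs and the top 118 IL-12 cells 84.9%. For Cxcl10 these shares were 100% and 92.2%. Before thinning, Cxcl9 was seen in 10.4% of control and 26.0% of IL-12 cells of cluster 6, and Cxcl10 in 6.72% and 19.2%. The shares of the top 36 control cells thus follow from how few cells had a UMI, and show no concentration beyond that. Ccl5, which T cells also make in quantity, stood at 1037 CPM in the IL-12 library, against 198 CPM in the control library, and its log2 ratio was 2.39 in all members and 1.42 without T cell UMIs. Ccl17, a ligand of CCR4, stood at 1.27 CPM in the IL-12 library, against 39.3 CPM in the control library, and all of its control UMIs lay in 10 cells or fewer. The monocyte chemokines Ccl6 and Ccl9 were lower, at 867 against 1954 CPM and 291 against 873 CPM, and Ccl8 and Ccl12, which attract through CCR2 and related receptors, higher, at 197 against 96.4 CPM and 83.4 against 37.8 CPM. Ccl2 lay within 1.5-fold, at 438 CPM in the IL-12 library, against 505 CPM in the control library. The abundant neutrophil chemokine Cxcl2 did too, at 15779 CPM in the IL-12 library, against 13018 CPM in the control library.

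Alternative activation genes were lower as a group. All 14 listed genes had at least 20 UMIs; 10 were at least 1.5-fold lower and 2 higher, against 21.3% of all measured genes lower, with a median over 11 measured genes of -1.07. Mrc1, the mannose receptor, stood at 64.4 CPM in the IL-12 library, against 165 CPM in the control library, and Ccl24, a chemokine for eosinophils, at 128 CPM in the IL-12 library, against 365 CPM in the control library. Vegfa, the growth factor for vessels, stood at 225 CPM in the IL-12 library, against 571 CPM in the control library, and Il4ra, the receptor subunit for interleukin 4, at 111 CPM in the IL-12 library, against 224 CPM in the control library. The genes that went the other way were Il10, an anti-inflammatory cytokine, at 29.8 CPM in the IL-12 library, against 16.2 CPM in the control library, and Clec10a, a lectin, at 14.2 CPM in the IL-12 library, against 5.79 CPM in the control library. In cluster 10, 5 of 10 with enough UMIs were lower and 2 higher, against 13.6% and 23.1% of its measured genes. In all cells outside cluster 6, 8 of the 14 were lower and 1 higher, with a median over 6 measured genes of -1.19, against 24.8% and 17.1% of measured genes. Vegfa and Il4ra were lower in cluster 10 as well, with log2 ratios of -0.87 and -0.97, while Arg1 was not, at 0.22.

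The enzymes that share arginine differed in direction. Of 6 genes, 2 were higher and 3 lower, against 10.4% and 21.3% of all measured genes. Arg2, the mitochondrial arginase, stood at 662 CPM in the IL-12 library, against 309.5 CPM in the control library, and Ass1, which remakes arginine from citrulline, at 76.8 CPM in the IL-12 library, against 18.6 CPM in the control library. Nos2, the inducible nitric oxide synthase, stood at 81.5 CPM in the IL-12 library, against 125 CPM in the control library. In the control library 10 cells held 59.3% of its UMIs. Thinned to 1000 UMIs per cell, Nos2 was seen in 6.58% of IL-12 and 5.88% of control members, against 5.22% and 10.1% of neutrophils. Odc1, which starts polyamine synthesis, stood at 50.7 CPM in the IL-12 library, against 106 CPM in the control library. The median of the list was -0.38 and turned positive, to 0.36, when every cell was thinned to 1000 UMIs.

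Monocyte genes were higher in part, and genes of settled macrophages were lower in part. Of 10 monocyte genes with enough UMIs, 4 were higher and 1, Chil3, lower, against 10.4% and 21.3% of all measured genes. Plac8 stood at 1793 CPM in the IL-12 library, against 614 CPM in the control library, and Ly6i at 120.0 CPM in the IL-12 library, against 22.9 CPM in the control library. Ccr2, the receptor that brings monocytes into tissue, lay within 1.5-fold at 150.3 CPM in the IL-12 library, against 122 CPM in the control library. Of 12 complement and resident-type genes, 7 were lower and 2 higher, with a median over 10 measured genes of -0.68. Without cells that hold a T cell UMI 5 were lower, 2 higher and 5 within 1.5-fold. Over all measured genes without those cells, 25.5% were lower and 9.92% higher. C1qa stood at 907 CPM in the IL-12 library, against 1447 CPM in the control library, and Maf, a transcription factor of settled macrophages, at 35.6 CPM in the IL-12 library, against 74.1 CPM in the control library. Timd4, a receptor for dying cells, was the other way, at 23.7 CPM in the IL-12 library, against 7.01 CPM in the control library, with 55.6% of its IL-12 UMIs in 10 cells. In cluster 10, C1qa stood at 2153 CPM in the IL-12 library, against 1270.1 CPM in the control library, a log2 ratio of 0.76 where cluster 6 gave -0.67.

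A few matrix genes were lower. Of 18 genes, 6 were lower and 0 higher, where 21.3% of all measured genes were lower and 10.4% higher, with a median of -0.28. Besides Fn1 and Thbs1, these included Mmp19, Sdc3 and Tgfbr1, at 178 against 278 CPM, 92.9 against 145 CPM and 22.1 against 35.1 CPM. Tgfb1, Tgfbi and Spp1 stayed within 1.5-fold, at 451 against 461 CPM, 1025 against 905 CPM and 1513 against 1544 CPM in IL-12 and control cells. Of 18 glycolysis and hypoxia genes, 6 were likewise lower and 0 higher, among them Hk2, the first enzyme of glycolysis, at 83.3 against 209 CPM, and Pgk1, at 101 against 217 CPM. Of 8 antioxidant genes with enough UMIs, 5 were higher and 0 lower, among them Hmox1, which breaks down haem, at 831 against 426 CPM, and Sqstm1 at 1200.4 against 559.6 CPM. All 15 lysosomal genes with enough UMIs lay within 1.5-fold, as Ctsd and Ctsb did at 763 against 966 CPM and 2118 against 1797 CPM.

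Cytokines and surface ligands gave no single direction. Of 15 cytokine genes, 6 were higher and 3 lower, against 10.4% and 21.3% of all measured genes. Tnf stood at 251 CPM in the IL-12 library, against 98.8 CPM in the control library, Il6 at 38.7 CPM in the IL-12 library, against 113 CPM in the control library, and Il1b, the most abundant, at 6416 CPM in the IL-12 library, against 4491 CPM in the control library. Il18bp, a decoy for interleukin 18, stood at 83.6 CPM in the IL-12 library, against 27.1 CPM in the control library. The genes of IL-12 itself were low in these cells: Il12a, its smaller subunit, stood at 4.63 against 5.18 CPM, and Il12b, its larger subunit, had 3 UMIs in IL-12 and 0 in control cells. Of 12 ligands of costimulation and checkpoints, 4 were higher and 2 lower. Cd40 stood at 90.2 CPM in the IL-12 library, against 35.1 CPM in the control library, Pdcd1lg2, which encodes PD-L2, at 48.7 CPM in the IL-12 library, against 17.99 CPM in the control library, and Cd274, which encodes PD-L1, at 333 CPM in the IL-12 library, against 294 CPM in the control library; Cd274 lay within 1.5-fold.

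Genes of dissociation stress and of cell division differed in both directions. Of 13 dissociation stress genes, 2 were higher and 4 lower in IL-12 cells, where 10.4% of all measured genes were higher and 21.3% lower. Egr1 stood at 167 against 88.1 CPM and Hspa1b at 46.3 against 154 CPM. Of 14 proliferation genes, 2 were higher and 6 lower, and Mki67 stood at 17.1 against 33.5 CPM. The part of stress genes in the contrasts above was not tested.

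**Figure D3:**
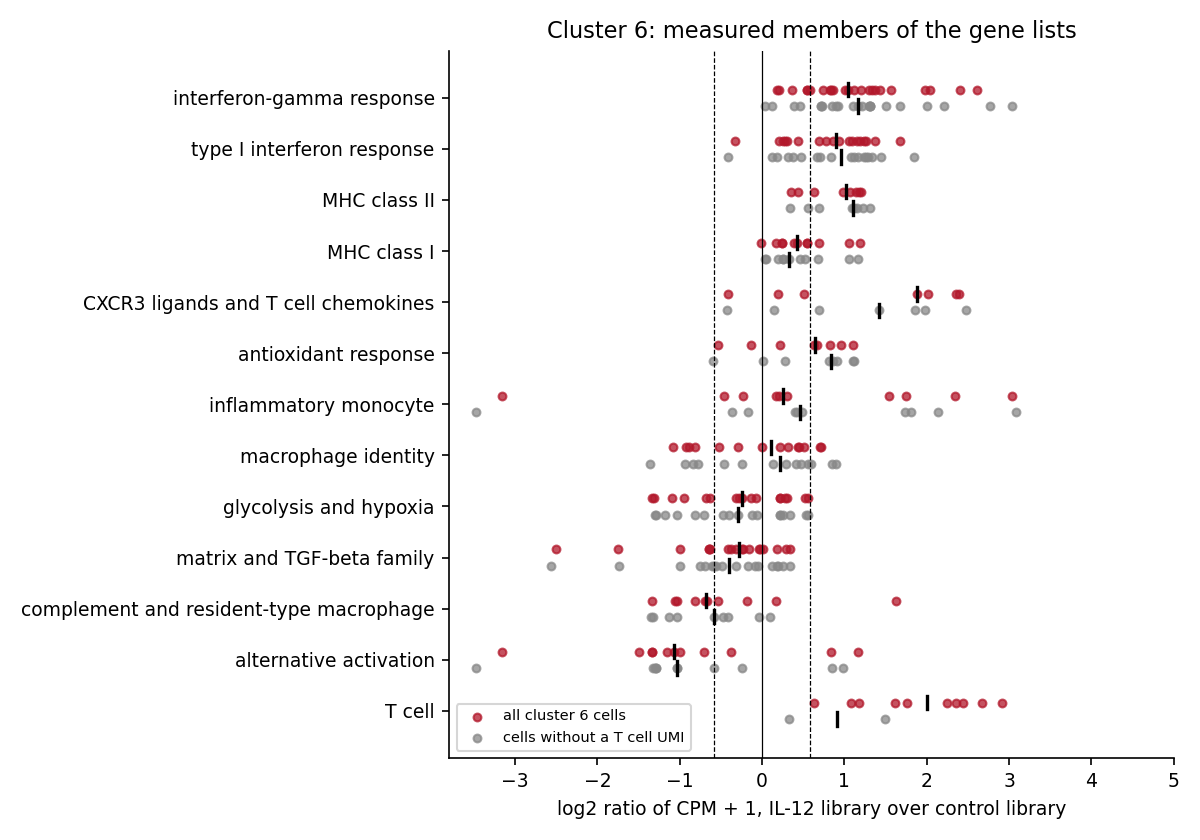
Log2 ratio (IL-12 over control) of each measured member of 13 gene lists in cluster 6, for all cells (upper points of each row) and for cells without a T cell UMI (lower points); vertical bars are list medians and dashed lines 1.5-fold. The medians of the interferon-gamma list were 1.04 and 1.16, of the alternative activation list -1.07 and -1.04.

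To compare shares of cells, every cell was thinned to 1000 UMIs; no cluster 6 cell was shallower, while 148 IL-12 and 82 control cells of cluster 10 were left out. Ly6c2 was seen in 33.7% (31.02 to 36.5) of IL-12 and 5.88% (3.68 to 8.85) of control cells of cluster 6. CD8 T cells, which also express Ly6c2, showed it in 20.01% and 5.24%, and neutrophils in 6.81% and 1.38%. Plac8 was seen in 62.2% (59.3 to 64.96) of IL-12 and 26.6% (22.1 to 31.5) of control members, against 25.8% and 16.8% of CD8 T cells. Neutrophils showed Plac8 in 33.4% (32.2 to 34.7) and 26.04% (24.4 to 27.8). In the control library the Plac8 share of members thus could not be told from that of neutrophils. Fn1 was seen in 31.2% (28.5 to 33.9) of IL-12 and 65.3% (60.1 to 70.2) of control members, against 1.53% and 1.69% of CD8 T cells. Arg1 was seen in 33.8% (31.1 to 36.6) and 63.03% (57.8 to 68.05) of members, against 4.66% and 3.08% of CD8 T cells. For these 4 genes the libraries differed in the number of cells that showed a UMI as well as in the summed level. Inhba and Thbs1 were not of this kind: Inhba was seen in 31.7% (29.02 to 34.4) of IL-12 and 33.6% (28.7 to 38.8) of control members, and Thbs1 in 30.8% (28.2 to 33.6) and 33.1% (28.2 to 38.2). In CD8 T cells the shares were 1.103% and 0.924% for Inhba, and 0.429% and 0.308% for Thbs1. Spp1, which encodes osteopontin, was seen in 37.1% (34.4 to 39.99) of IL-12 and 37.5% (32.5 to 42.8) of control members, against 39.8% (38.1 to 41.5) and 22.96% (19.8 to 26.4) of CD8 T cells. The share of members thus lay above that of CD8 T cells in the control library and not in the IL-12 library, where the intervals overlapped. Neutrophils showed Spp1 in 46.5% (45.2 to 47.8) of IL-12 and 26.7% (25.04 to 28.5) of control cells. Whether the Spp1 UMIs of these other cells were their own or background was not tested. Before thinning, the shares for Ly6c2 were 64.8% and 19.9%, for Fn1 67.2% and 87.7%, for Arg1 56.8% and 83.8%, for Plac8 85.7% and 59.7%, for Inhba 56.1% and 51.5%, for Thbs1 49.2% and 50.1%, and for Spp1 65.7% and 66.7%, in IL-12 and control members. Median depths were 6433.5 and 5794 UMIs in CD8 T cells of the IL-12 and control libraries.

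Over cluster 6 cells, 6 pairs of genes were compared for how often one was seen in cells with the other; these shares are descriptions, with no test. In the IL-12 library C1qa was seen in 9.37% (6.68 to 12.7) of cells with a Ly6c2 UMI and in 36.2% (32.8 to 39.7) of those without. In the control library the shares were 9.52% (1.17 to 30.4) and 49.7% (44.2 to 55.2), with 21 cells that had a Ly6c2 UMI. C1qa was seen in 7.29% of IL-12 and 3.39% of control CD8 T cells, so its share in cells with Ly6c2 lay near that of background in the IL-12 library. Inhba was seen in 18.2% (14.2 to 22.9) of IL-12 cells with a C1qa UMI and 36.7% (33.5 to 40.03) of those without, and in 15.98% (10.8 to 22.4) and 49.5% (42.1 to 56.8) of control cells. In both libraries the C1qa share was lower in cells with Ly6c2, and the Inhba share lower in cells with C1qa, with intervals that did not overlap. Arg1 was seen in 20.2% (13.4 to 28.5) of IL-12 cells with a Cxcl9 UMI and 35.4% (32.5 to 38.3) of those without. With Nos2 the order turned, at 53.2% (41.5 to 64.7) of IL-12 cells with a Nos2 UMI and 32.4% (29.7 to 35.3) of those without. In the control library the shares were 76.2% (52.8 to 91.8) and 62.2% (56.8 to 67.4), with overlapping intervals. Nos2 itself was seen in 6.58% (5.22 to 8.15) of IL-12 and 5.88% (3.68 to 8.85) of control members. The shares were 5.22% (4.66 to 5.83) and 10.1% (8.94 to 11.3) in neutrophils, and 0.858% and 0.462% in CD8 T cells. Members thus did not stand above neutrophils for Nos2, and the source of its UMIs in members was not tested. Fn1 showed no such split by Cxcl9, at 31.1% (22.9 to 40.2) and 31.2% (28.4 to 34.1) in the IL-12 library; in the control library the shares were 36.4% (10.9 to 69.2) and 66.2% (60.9 to 71.2), with 11 cells that had a Cxcl9 UMI. Apoe was seen in 63.3% (57.98 to 68.5) of IL-12 cells with a Ms4a4c UMI and 73.1% (69.98 to 76.1) of those without, and the control shares ran the other way, at 86.7% (69.3 to 96.2) and 83.5% (79.01 to 87.3), with overlapping intervals. Without cells that hold a T cell UMI, the C1qa shares were 10.3% and 38.9%, and the Arg1 shares by Cxcl9 17.7% and 34.7%, in the IL-12 library.

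**Figure D4:**
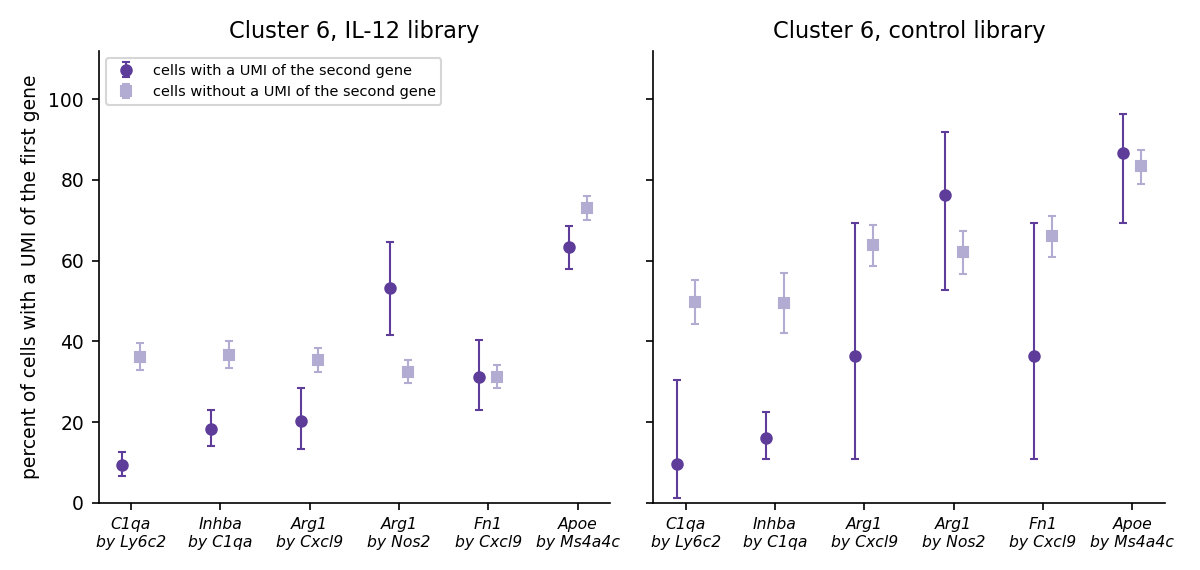
Share of cluster 6 cells with a UMI of the first gene, split by whether the cell had a UMI of the second gene, after thinning to 1000 UMIs per cell, with exact binomial 95% intervals; IL-12 library left, control library right. In both libraries C1qa was less frequent in cells with Ly6c2 than in those without. In the IL-12 library Arg1 was more frequent in cells with Nos2 than in those without. Nos2 itself was seen in 6.58% of IL-12 members and 5.22% of IL-12 neutrophils.

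A T cell clonotype was assigned to some of these macrophages, more often in the IL-12 library. It was present in 154 of 1171 IL-12 cells, 13.2% (11.3 to 15.2), and in 12 of 357 control cells, 3.36% (1.75 to 5.80). In cluster 10 the shares were 3.08% (1.77 to 4.96) of IL-12 cells and 0 of 209 control cells, which allows up to 1.44%. Every cell with a clonotype in cluster 6 also held a UMI of Cd3d, Cd3e, Cd3g or Trac. Of cells without such a UMI, 0 of 731 IL-12 cells had a clonotype, which allows up to 0.410%, and 0 of 295 control cells, which allows up to 1.02%.

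**Figure D5:**
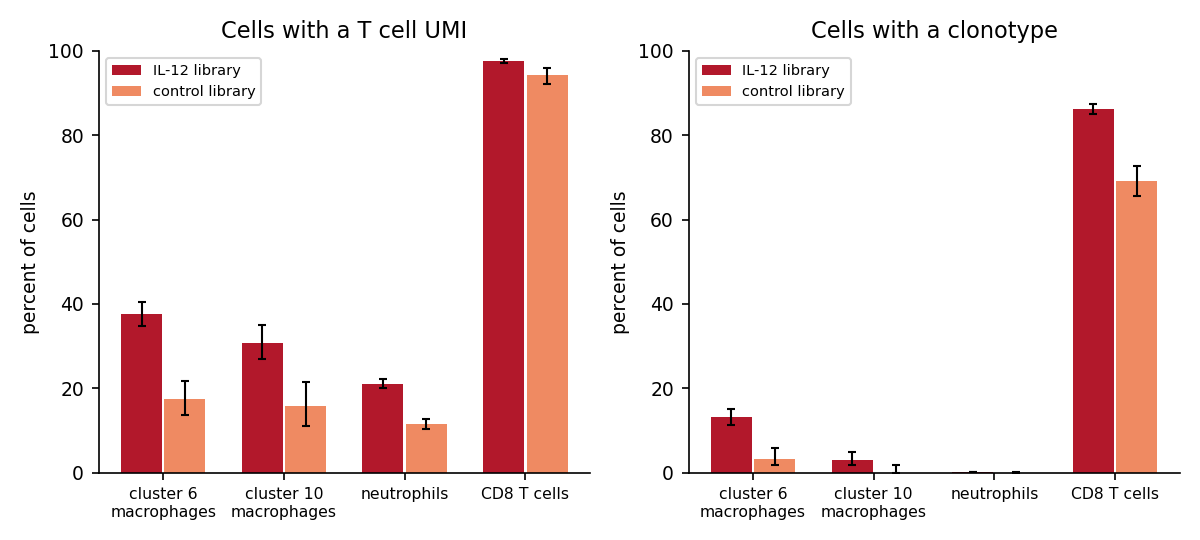
Percent of cells with a T cell UMI (left) and with a clonotype (right) in clusters 6 and 10, neutrophils and CD8 T cells, IL-12 library left of control in each pair, with exact binomial 95% intervals. In cluster 6 the shares were 37.6% and 17.4% for a T cell UMI and 13.2% and 3.36% for a clonotype.

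The clonotypes were largely those of T cells in the same library. Of the 154 IL-12 cells, 110 (71.4%) had a clonotype that a cell called a T cell also had, and 65 (42.2%) had 1 of the 5 most frequent clonotypes of CD8 T cells, which made up 63.9% of CD8 T cells with a clonotype. They bore 70 distinct clonotypes; 102 cells had chains of both kinds and 52 had 1 chain. Of the 12 control cells, 3 shared a clonotype with a cell called a T cell.

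Cells with a clonotype were deeper and held transcripts of both lineages. In the IL-12 library their median was 12194.5 UMIs, against 8935 in the 1017 cells without, and 26 of them had S100a8 and S100a9 above 1% of UMIs. Their 4 T cell genes summed to 1341 CPM, against 104 CPM in cells without, 3818 CPM in CD8 T cells and 82.02 CPM in neutrophils of that library. The macrophage list summed to 12244 CPM in cells with a clonotype and 17622 CPM in those without. Of its 14 genes, 3 were at least 1.5-fold lower and 0 higher, against 6.55% and 13.9% of all measured genes. Whether such a droplet held 2 cells was not tested.

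The 12 control cells with a clonotype were too few to compare, so the contrast was made in the IL-12 library. Of 6856 measured genes, 956 (13.9%) were at least 1.5-fold higher in IL-12 cells with a clonotype and 449 (6.55%) lower. Cells with a clonotype were deeper, at medians of 12194.5 UMIs, against 8935 UMIs in those without. Thinned to 1000 UMIs per cell, 1656 were higher and 1758 lower. Most of the 8 genes at the top are known from T cells. Gzmk, a granzyme, stood at 57.6 CPM in cells with a clonotype, against 2.51 CPM in those without, and Nkg7, a granule protein, at 1126 CPM in cells with a clonotype, against 77.2 CPM in those without. Cxcr6, a receptor of tissue T cells, stood at 284 CPM in cells with a clonotype, against 19.6 CPM in those without, and Cd3g at 572 CPM in cells with a clonotype, against 37.7 CPM in those without. Gzmd and Gzme, granzymes of a linked cluster, stood at 60.9 against 3.59 CPM and 69.5 against 2.83 CPM, with 90.3% and 89.6% of their IL-12 UMIs in cluster 6 in 10 cells. Calca, which encodes the peptide CGRP, stood at 49.99 CPM in cells with a clonotype, against 1.63 CPM in those without, and Tnfsf8, the ligand of CD30, at 26.6 CPM in cells with a clonotype, against 0.545 CPM in those without; 10 cells held 73.8% and 96.3% of their UMIs. All 8 were at least 10-fold higher.

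Genes lower in cells with a clonotype were myeloid in part. Clec10a stood at 3.803 CPM in cells with a clonotype, against 16.3 CPM in those without, and Il23a, a subunit of interleukin 23, at 7.61 CPM in cells with a clonotype, against 30.6 CPM in those without. Dnase1l3, a secreted nuclease, Retnlg, a neutrophil resistin-like gene, and Fgd2, an exchange factor for CDC42, were 4.46-fold (1.68 to 16.7), 3.003-fold (2.46 to 3.699) and 3.73-fold (1.54 to 11.8) lower. Laptm4b, a lysosomal membrane gene, Pde1b, a phosphodiesterase, and Man2c1, a mannosidase, were 6.62-fold (1.76 to 55.8), 3.89-fold (1.61 to 12.2) and 4.28-fold (1.399 to 21.3) lower, the first from 2 UMIs and the last from 3 UMIs in cells with a clonotype. The markers Fn1, Thbs1, Inhba and Arg1 differed little, with log2 ratios of -0.12, -0.10, 0.10 and -0.18; Ms4a4c gave -0.34 and Apoe -0.82. Cxcl9 gave -1.34, at 87.5 CPM in cells with a clonotype, against 223 CPM in those without.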

How the data were processed

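The authors deposited 1 table per gene expression library, with a row per cell, their graph-based cluster, class and clonotype, and log2(CPM + 1) values for 11407 genes. Cell Ranger 2.1.0, STAR 2.6.1, Partek and genome mm10 are named in the submitters' processing notes; how cells and genes were filtered is not stated there. The other deposited table, of T cells, was not used.

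UMIs were recovered from each cell's smallest value, which is 1 UMI; 13 of 13883686 IL-12 values and 6 of 4251108 control values were not within 0.1 of a whole number. UMIs were summed over members per library and divided by the cells' recovered totals, which include genes outside the table. A gene was measured with at least 50 UMIs over both groups and a UMI in at least 5% of cells of either, and list members were counted from 20 UMIs. Genes were called at 1.5-fold (libraries, clonotype) or 2-fold (clusters) of CPM + 1. Counts have exact Poisson and shares exact Clopper-Pearson 95% intervals, both of counting error only; a count of 0 allows up to 3 counts. The pooled mice cannot be separated, so no test between treatments was made. Genes named are the 10 (libraries) or 8 (clusters, clonotype) at each end of each contrast, the 6 markers, a fixed set of genes of the response, and list members with large ratios; Gbp2, Gbp7, Tgfb1, Tgfbi and other list members close to 1 were chosen after their values were seen. A few of these are not reported here. Members and lists were chosen with earlier results of these data known. No doublet caller was run; cells with a clonotype, with a T cell UMI, and the deepest cells were left out in turn. The ratio and thinning steps were tested on simulated data. Python 3.11.15, numpy 2.4.6, scipy 1.17.1 and pandas 2.3.3 were used.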

Additional observations from a re-analysis of the deposited data

Results flagged for a closer look

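C1qa, a complement gene of settled macrophages, differed in direction between the clusters. Its log2 ratio of IL-12 over control was 0.76 in cluster 10 and -0.67 in cluster 6. With 1 library per treatment the difference between the clusters was not tested.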

How the results depend on the processing

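The difference in the share of sorted cells, 0.587 percentage points, turned to -7.07 without neutrophils, to -1.24 without members that hold a T cell UMI and, in an alternative added after seeing the data, to -4.83 without neutrophils and cells with a clonotype; it was 6.61 among macrophages and 1.597 without cells with a clonotype. The clonotype difference was 0 in cells with no T cell UMI, where no cell had a clonotype. Genes higher and lower in IL-12 members (727 and 1486) became 431 and 712 with a pseudocount of 10 CPM and 292 and 439 at 2-fold; 1231 were higher after thinning, 1304 without the filter, and 837 lower from 200 UMIs. Against cluster 10 (385 and 53) there were 223 and 130 after centring, 256 and 9 from 200 UMIs, and 236 and 20 with 10 CPM; 105 were lower on table UMIs, 88 by cell means, 94 after thinning and 635 without the filter. By clonotype (956 and 449) there were 1656 and 1758 after thinning, 1996 and 1096 without the filter, 327 and 238 from 200 UMIs, and 481 and 169 with 10 CPM. The causes were not tested. Leaving out T cell UMIs could not be done by clonotype, since every such cell has one. Library log2 ratios of T cell genes reversed: without cells with a clonotype, Gzmd -0.069 and Tnfsf8 -0.56; without T cell UMIs, Gzmd -1.08, Gzme -0.056, Ptpn22 -0.54 and Tnfsf8 -0.28; without T cell UMIs and S100-rich cells, an added alternative, Calca -0.069, Gzmd -1.12, Ptpn22 -0.45 and Tnfsf8 -0.47. No paired analysis was possible because each treatment has 1 library. Precision for low genes is limited by their UMIs.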
